A study of Homo sapiens with 6 samples.

Results

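Direct target genes of the transcription factor p53 were followed in an established human osteosarcoma line, spelled U20S or U2O2 in the labels and read here as U2OS, in which H3.X and H3.Y, forms of histone H3 found only in primates, were targeted by siRNA. The genes were taken from a list of 31 p53 targets, and a probe set was counted when the platform annotation gave it exactly 1 gene symbol and that symbol or an older alias was on the list. This found 29 probe sets for 29 genes among the 33297 probe sets of the array, of which 19460 carried a single symbol. BTG2 and FDXR were not analysed here. No gene had to be found through an older symbol.

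Cells grown in DMEM with serum were transfected 2 times by oligofectamine and harvested at day 4. One group received siRNA against luciferase, which served as the control, one received siRNA against H3.Y, and one was labelled as a knockdown of H3.X together with H3.Y, called the combined knockdown here. Each of the 3 groups had 2 arrays, called biological replicates in the labels. The labels do not describe how the replicate cultures were kept apart, whether 1 siRNA or several were used per target, or what dose was given. The p-values therefore measure only the spread between these 6 arrays, which may be technical.

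The p53 protein binds DNA as a tetramer at paired half-sites and switches on genes that stop the cell cycle, repair DNA, limit metabolism or start apoptosis. One of its targets, MDM2, encodes the ubiquitin ligase that degrades p53, so that the response limits itself. Another, CDKN1A, encodes p21, which inhibits cyclin-dependent kinases and thereby lowers the transcription of many cell division genes through RB-family proteins and the DREAM complex. U2OS cells are known to retain functional p53, and p53 is controlled mainly at the protein level, which arrays do not read.

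Values are log2 signals per probe set, so 1 unit is a 2-fold step, and levels are compared only within a probe set. Array medians lay between 5.10 and 5.14 log2 units, and arrays of the same group correlated with r between 0.986 and 0.992 over all probe sets. The osteosarcoma identity was checked on mesenchymal and osteoblast markers, of which VIM lay at 10.69 to 10.95 and SPARC at 9.94 to 11.55 over the arrays, while COL1A2 at 4.78 to 5.38 and RUNX2 at 5.05 to 5.89 were low. The 6 blood marker probe sets ran from PTPRC at 1.89 to 2.29 through CD14 at 4.18 to 4.74 up to SPI1 at 5.12 to 5.37, which was near the array medians, and 0 of them passed the test in any comparison. The mean level of 7 epithelial probe sets, 2 of them for EPCAM, was 4.96 to 5.03 in luciferase cells, 4.55 to 4.70 after H3.Y siRNA and 5.94 to 6.06 in the combined knockdown, where both EPCAM probe sets rose (log2 2.25 and 2.73). The mean of the 8 mesenchymal and osteoblast probe sets was 7.93 to 8.14, 7.98 to 8.12 and 8.56 to 8.75 in the same order. Of these lists, 2 of the 7 epithelial probe sets, both for EPCAM, and 1 of the 8 mesenchymal and osteoblast ones, COL1A1 (log2 1.58), passed against luciferase there. All 7 epithelial and 7 of the 8 mesenchymal and osteoblast probe sets were higher there than in luciferase cells. Without passing, SPARC gave 1.02, CDH2 0.91 and CLDN4 0.70, while VIM, ALPL and KRT5 gave -0.02, 0.12 and 0.0026. Against H3.Y siRNA, 4 of the 7 and 3 of the 8 passed as higher, where 2.74% of all probe sets did. The part of these markers in the p53 target values was not tested.

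The promoters of several members hold the DNA letters that p53 reads as a half-site, and the stretches around them are shown for that reason. Promoter windows from RefSeq (GRCh38.p14), running from 250 bases before to 50 bases after an annotated start, matched 26 of the 31 listed genes in 39 windows. The p53 consensus half-site, which reads the same on both strands, was present in 6 of the 39 windows (15.4%) and in 6.65% of all 34796 distinct windows. The genes holding it were PLK2, FAS, AEN, DDB2, SESN1 and FDXR. Pairs of half-sites separated by up to 13 bases occurred in 0.0287% of all windows and in 1 member window, that of DDB2. Capitals mark the half-sites in the following stretches, which are written 5′ to 3′ on the gene's strand. The first runs over the 250 bases before the PLK2 start (chr5:58460087-58460336, minus strand) and has its half-site 132 bases upstream. The others show short stretches around the sites of FAS (chr10:88991299-88991328, plus strand), AEN (chr15:88621296-88621325, plus strand), SESN1 (chr6:109009018-109009047, minus strand) and DDB2 (chr11:47214979-47214999, plus strand).
PLK2: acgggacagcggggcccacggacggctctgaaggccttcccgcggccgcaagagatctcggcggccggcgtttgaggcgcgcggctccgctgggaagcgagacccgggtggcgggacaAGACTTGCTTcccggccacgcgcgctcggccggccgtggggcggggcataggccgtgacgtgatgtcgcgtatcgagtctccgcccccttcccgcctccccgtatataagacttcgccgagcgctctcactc
FAS: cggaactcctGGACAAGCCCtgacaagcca
AEN: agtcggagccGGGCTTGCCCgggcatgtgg
SESN1: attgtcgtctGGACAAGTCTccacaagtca
DDB2: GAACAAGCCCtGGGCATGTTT

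CDKN1A is the other member, beside PLK2, that passed the test below. Its window held no p53 half-site but held GC boxes, the letters GGGCGG on either strand, which SP1-family factors can read. These were present in 33 of the 39 member windows (84.6%) and in 44.9% of all windows. Capitals mark the 4 GC boxes in the 250 bases before the CDKN1A start (chr6:36678464-36678713, plus strand), where the 2 nearest the start share a base. Such matches describe the letters in these windows only, and binding was not measured.
CDKN1A: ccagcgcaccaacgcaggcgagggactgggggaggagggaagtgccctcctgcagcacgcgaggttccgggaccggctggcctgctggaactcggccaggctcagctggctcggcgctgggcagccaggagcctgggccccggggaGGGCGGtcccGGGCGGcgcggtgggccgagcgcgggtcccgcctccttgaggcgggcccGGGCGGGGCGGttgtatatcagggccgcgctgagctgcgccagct

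Over all 29 members, most p53 targets lay somewhat above luciferase in both knockdowns, but few passed the test on their own. The p-values are those of limma over all 6 arrays, with Benjamini-Hochberg adjustment across the 33297 probe sets, and a gene is said to have risen or fallen only at an adjusted p under 0.05. After H3.Y siRNA, 24 members were higher and 5 lower than in luciferase cells, with a median difference of log2 0.22 against 0.02 for all probe sets, and 0 members passed, where 0.279% of all probe sets passed in either direction and 0.0841% rose. Of the members, 8 had an unadjusted p under 0.05, against 13.9% of all probe sets. In the combined knockdown, 22 members were higher and 7 lower, with a median of 0.21 against 0.00087 for all probe sets. Here CDKN1A and PLK2 rose and 0 members fell, where 1.84% of all probe sets passed in either direction and 0.859% rose, and 12 members had an unadjusted p under 0.05 against 15.3% of all. Between the knockdowns, 14 members were higher and 15 lower in the combined knockdown (median -0.03, the same as for all probe sets), and only PLK2 passed, against 4.67% of all probe sets, with 10 members at an unadjusted p under 0.05 against 19.0%. Among probe sets with a single gene symbol, as all members have, 17%, 19.1% and 24.4% had an unadjusted p under 0.05 in these comparisons. When only these 19460 probe sets were fitted, more members passed, and so did more of the probe sets (4.26%, 7.96% and 14.0% in the same order of comparisons). Then 1 member, GADD45A, passed after H3.Y siRNA, and MDM2, SUSD6 and ZMAT3 joined CDKN1A and PLK2 in the combined knockdown. Between the knockdowns 9 members passed on that basis, namely CDKN1A, MDM2, PLK2, RRM2B, SUSD6, TP53I3 and ZMAT3, which were higher in the combined knockdown, and CYFIP2 and GADD45A, which were lower. Of the 29 members, 28 lay above the median mean level of the probe sets. When only probe sets above it were fitted, 3680, 4323 and 5103 of them had an unadjusted p under 0.05, with 9, 14 and 12 members. In the fit of all 33297 probe sets the counts were 4618, 5089 and 6327. A share over all probe sets is therefore lower than one at the level of most members.

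**Figure D1:**
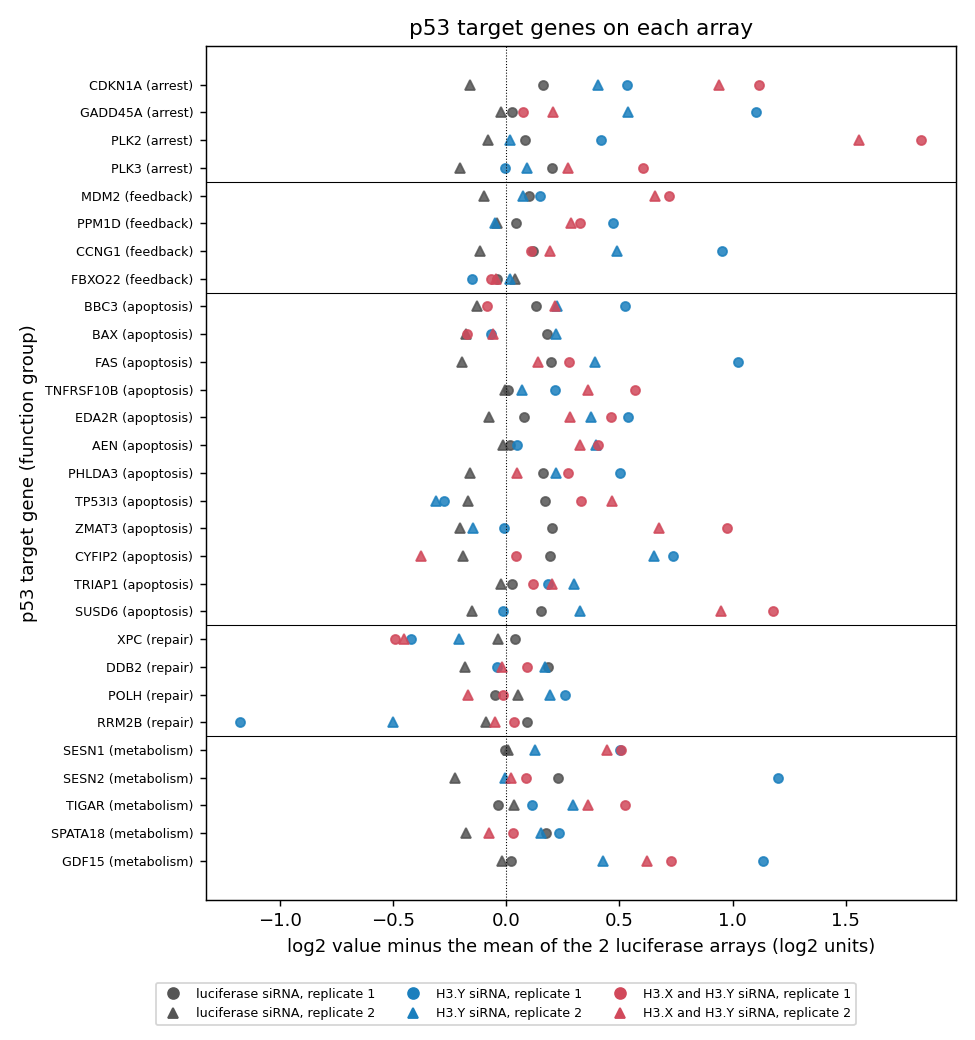
Each row is a p53 target gene, grouped by function, and each point is the log2 value on 1 array minus the mean of the 2 luciferase arrays (circles, replicate 1; triangles, replicate 2). For PLK2, CDKN1A, SUSD6 and ZMAT3 the rightmost points of the row are both arrays of the combined knockdown, and for GADD45A, CCNG1, FAS and CYFIP2 they are both arrays of H3.Y siRNA.

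Groups whose arrays did not overlap were counted as a second description. Both H3.Y arrays lay above both luciferase arrays for 15 of the 29 members (51.7%), against 21.7% of all probe sets, and below them for 3, against 6664 of all 33297 probe sets. Both arrays of the combined knockdown lay above both luciferase arrays for 16 members (55.2%), against 23.4% of all probe sets, and below them for 2, against 24.0%. The combined knockdown lay above H3.Y siRNA for 10 members and below it for 8, against 21.2% and 25.4% of all probe sets. Among probe sets with 1 gene symbol, as all members have, the shares were higher. In the same order of comparisons, 23.3%, 27.5% and 26.3% of them lay above and 23.2%, 26.1% and 27.6% below. Both comparisons with luciferase use the same control arrays, so their counts are not independent. Most members lay above the median level, and non-overlap shares at that level were not computed. The members and the further lists below were chosen with earlier results of these data known. All counts of them beside shares of all probe sets are therefore descriptions, and an excess was not tested.

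Replicate 1 lay above replicate 2 for most members in all 3 groups. It did so for 25 of the 29 members in luciferase cells, by a median of 0.20 log2 units, for 19 after H3.Y siRNA (median 0.09) and for 21 in the combined knockdown (median 0.10), while over all probe sets the median differences were 0.01, -0.01 and 0.02. The median member lay 0.10 above the luciferase mean on replicate 1 and 0.10 below it on replicate 2. On the knockdown arrays it lay 0.23 and 0.19 above that mean after H3.Y siRNA and 0.28 and 0.22 above it in the combined knockdown. All 4 knockdown arrays thus lay above both control arrays, but luciferase replicate 1 was closer to them than to luciferase replicate 2. Without luciferase replicate 1 the member median was 0.35 in the combined knockdown, and without replicate 2 it was 0.14. After H3.Y siRNA the arrays differed most, with an SD of the difference between replicates of 0.39 over the members, against 0.17 for luciferase and 0.16 for the combined knockdown. Over all probe sets this SD was also largest after H3.Y siRNA, at 0.42, against 0.33 for luciferase and 0.30 for the combined knockdown.

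**Figure D2:**
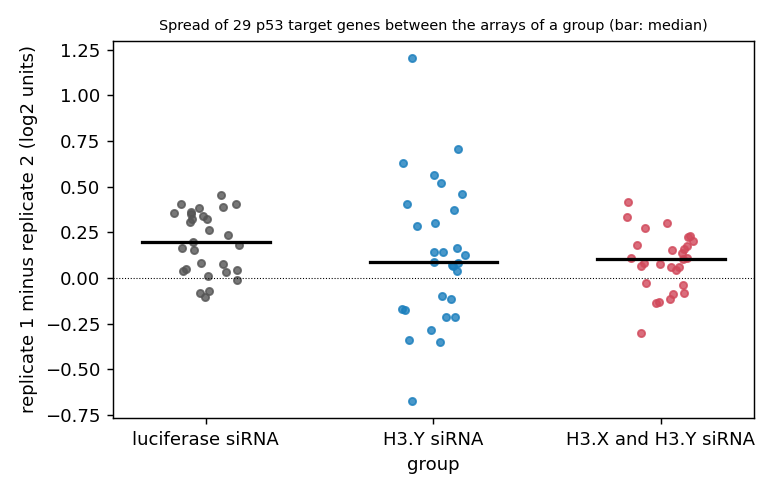
Each point is 1 of 29 p53 target genes, plotted by group as the log2 value on replicate 1 minus that on replicate 2, and the bar is the median. Replicate 1 was above replicate 2 for 25 genes in luciferase cells (median 0.20), 19 after H3.Y siRNA and 21 in the combined knockdown, and the H3.Y group has the widest spread.

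Both members that rose, PLK2 and CDKN1A, belong to the group that arrests the cell cycle, and both did so in the combined knockdown. PLK2 is a polo-like kinase that p53 induces under stress. Its level was 9.00 and 8.84 log2 units on the luciferase arrays, 9.34 and 8.94 after H3.Y siRNA, and 10.75 and 10.48 in the combined knockdown. Both arrays of the combined knockdown stood above the other 4 by more than 1 log2 unit, and the H3.Y arrays overlapped those of luciferase. PLK2 rose 3.24-fold in the combined knockdown (log2 1.70 ± 0.19 SE, n = 2 arrays per group, adjusted p = 0.0191), and it was 2.79-fold above H3.Y siRNA (1.48 ± 0.19, adjusted p = 0.0156). With H3.Y siRNA its difference was 0.22 ± 0.19 (adjusted p = 0.689). Leaving out any one array of luciferase or of the combined knockdown kept the difference between 1.56 and 1.83 but ended the call against luciferase, with adjusted p from 0.1 to 0.175 and 0 probe sets called in all. The call against H3.Y siRNA ended without combined replicate 1 or 2, at adjusted p of 0.129 and 0.0779.

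The CDK inhibitor gene CDKN1A lay at 8.02 and 7.70 on the luciferase arrays, 8.39 and 8.27 after H3.Y siRNA, and 8.98 and 8.80 in the combined knockdown. The 3 groups did not overlap, with luciferase lowest and the combined knockdown highest. CDKN1A rose 2.04-fold in the combined knockdown (log2 1.03 ± 0.16, adjusted p = 0.04). It was 1.38-fold above luciferase after H3.Y siRNA (0.47 ± 0.16, adjusted p = 0.276), which did not pass, and the difference between the knockdowns was 0.56 ± 0.16 (adjusted p = 0.123). The call was lost in a fit of only the 4 arrays compared (adjusted p = 0.0541), and leaving out 1 H3.Y array gives that same fit. It was also lost without any one luciferase or combined array, with differences between 0.87 and 1.19.

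The other 2 measured arrest genes did not pass. GADD45A, a growth arrest protein induced by DNA damage, lay at 9.85 and 9.80 in luciferase cells, 10.93 and 10.37 after H3.Y siRNA, and 9.90 and 10.03 in the combined knockdown. The H3.Y arrays were the highest, with replicate 1 well above replicate 2. Its differences were 0.82 ± 0.20 for H3.Y siRNA (adjusted p = 0.163), 0.14 ± 0.20 for the combined knockdown and -0.68 ± 0.20 between them (adjusted p = 0.129). Without H3.Y replicate 1 the first was 0.54 and the last -0.40, and without H3.Y replicate 2 they were 1.10 and -0.97 and passed (adjusted p = 0.0421 and 0.036). PLK3, a stress-responsive relative of PLK2, had its highest arrays in the combined knockdown, as CDKN1A did, with differences from luciferase of 0.04 ± 0.19 and 0.44 ± 0.19.

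**Figure D3:**
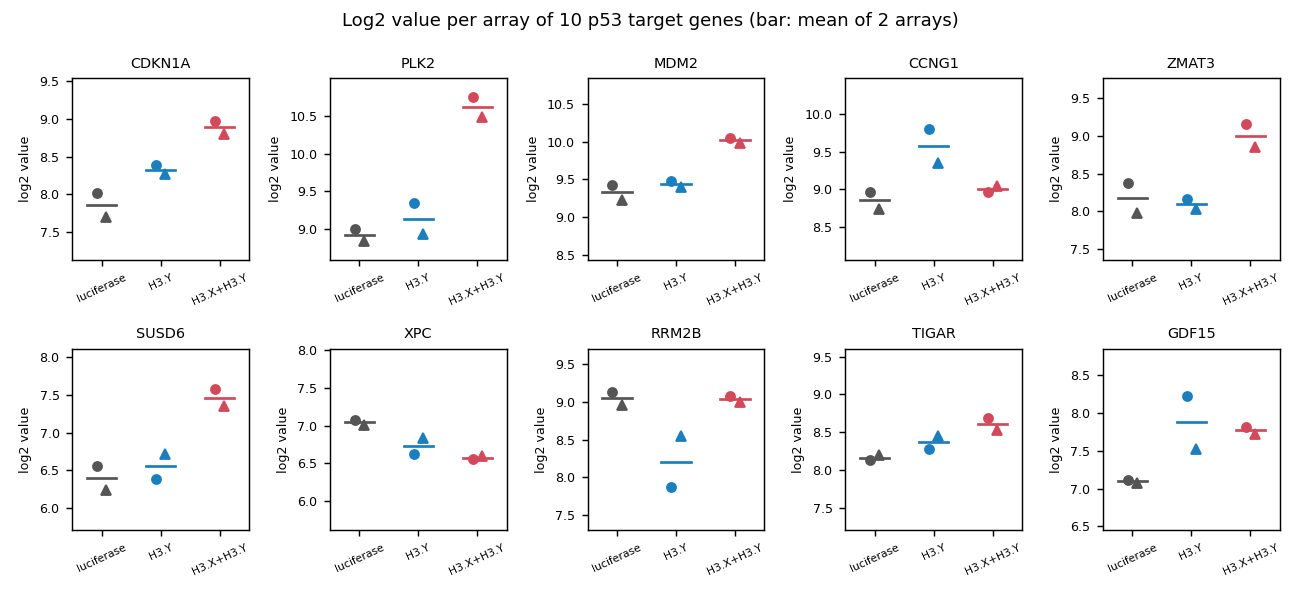
Log2 value on each of the 6 arrays for the 10 p53 targets that the naming rule selected, with circles for replicate 1, triangles for replicate 2 and bars for the mean of the 2 arrays of a group. PLK2, CDKN1A, MDM2, ZMAT3 and SUSD6 have their highest arrays in the combined knockdown, CCNG1 has them after H3.Y siRNA, and RRM2B has its lowest there.

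Of the 4 members that feed back on p53, 0 passed in any comparison. MDM2 lay at 9.43 and 9.23 in luciferase cells, 9.47 and 9.40 after H3.Y siRNA, and 10.05 and 9.98 in the combined knockdown. Only the combined knockdown stood apart, by 1.61-fold above luciferase (log2 0.69 ± 0.14, adjusted p = 0.0702) and 0.58 ± 0.14 above H3.Y siRNA (adjusted p = 0.0728). Neither difference passed. Cyclin G1 (CCNG1), which brings a phosphatase to MDM2, lay at 8.97 and 8.74 in luciferase cells, 9.80 and 9.34 after H3.Y siRNA, and 8.96 and 9.04 in the combined knockdown. Its H3.Y arrays were above the other 4, at 0.72 ± 0.19 over luciferase (adjusted p = 0.179) and -0.57 ± 0.19 for the combined knockdown against H3.Y siRNA (adjusted p = 0.167), which was -0.34 without H3.Y replicate 1. The phosphatase PPM1D, which removes activating phosphates from p53, differed from luciferase by 0.21 ± 0.19 and 0.31 ± 0.19. FBXO22, a substrate receptor of a ubiquitin ligase, ranged over only 0.19 log2 units across all 6 arrays.

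Of the 12 measured members tied to apoptosis, 10 were above luciferase after H3.Y siRNA and 10 in the combined knockdown, with medians of log2 0.23 and 0.29, and 0 passed in any comparison. SUSD6, a membrane protein gene also known as DRAGO, came closest. Its level was 6.55 and 6.25 in luciferase cells, 6.39 and 6.72 after H3.Y siRNA, and 7.58 and 7.35 in the combined knockdown. The combined knockdown stood above the other 4 arrays, by 1.06 ± 0.19 over luciferase (2.09-fold, adjusted p = 0.0531) and 0.91 ± 0.19 over H3.Y siRNA (adjusted p = 0.0503). With median centring both differences passed (adjusted p = 0.0464 and 0.0437). ZMAT3, an RNA-binding zinc finger protein that acts on splicing, lay at 8.38 and 7.97, 8.17 and 8.03, and 9.15 and 8.85 on the luciferase, H3.Y and combined arrays. Again the combined knockdown was apart from the rest, at 0.82 ± 0.19 over luciferase (adjusted p = 0.102) and 0.90 ± 0.19 over H3.Y siRNA (adjusted p = 0.0533). With the replicate number as a block, the latter passed (adjusted p = 0.0289).

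TP53I3, an oxidoreductase gene linked to reactive oxygen, lay at 8.60 and 8.26, 8.16 and 8.12, and 8.76 and 8.90 in the same order. Its H3.Y arrays were below both luciferase arrays and its combined arrays above both, with a difference between the knockdowns of 0.69 ± 0.16 (adjusted p = 0.0686). CYFIP2, a subunit of the WAVE complex that steers actin, had its group means in the reverse order, with 8.12 and 7.73, 8.66 and 8.58, and 7.97 and 7.55. Its combined arrays overlapped those of luciferase (-0.17 ± 0.20, adjusted p = 0.822). The H3.Y arrays were its highest, 0.70 ± 0.20 over luciferase (adjusted p = 0.206), and the combined knockdown differed from H3.Y siRNA by -0.86 ± 0.20 (adjusted p = 0.0703, and 0.0363 with the replicate block, where it passed). FAS, a death receptor, lay at 7.99 and 7.60, 8.82 and 8.19, and 8.07 and 7.94, with the H3.Y arrays highest and a difference of 0.71 ± 0.24 (adjusted p = 0.271), which was 0.39 without H3.Y replicate 1 and 1.02 without H3.Y replicate 2. TP53I3, CYFIP2 and FAS, like GADD45A above, were picked out after their values were seen. Knockdowns on opposite sides of luciferase, as for TP53I3, were seen for 1 of the 29 members, against 7.41% of all probe sets.

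Another death receptor, TNFRSF10B (the TRAIL receptor DR5), gave 0.14 ± 0.14 and 0.46 ± 0.14 in the H3.Y and combined groups against luciferase (adjusted p = 0.183 for the latter). EDA2R, a receptor of the tumour necrosis factor family, was above luciferase on all 4 knockdown arrays, by 0.46 ± 0.15 and 0.37 ± 0.15. Of the mitochondrial death genes, BBC3 (PUMA) gave 0.37 ± 0.19 and 0.07 ± 0.19, and BAX gave 0.08 ± 0.18 and -0.12 ± 0.18, with adjusted p between 0.447 and 0.944 over these 4 values. BBC3 was highest on the H3.Y arrays, but H3.Y replicate 2, at 6.413, was barely above combined replicate 2, at 6.406. The nuclease gene AEN (0.22 ± 0.16 and 0.37 ± 0.16), the AKT inhibitor PHLDA3 (0.36 ± 0.18 and 0.16 ± 0.18) and the survival factor TRIAP1 (0.24 ± 0.13 and 0.16 ± 0.13) did not pass either. Of the window sequences shown above, those of FAS and AEN thus belong to genes that did not pass.

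Of the 4 members that act in DNA repair or nucleotide supply, 2 were above luciferase after H3.Y siRNA and 1 in the combined knockdown, with medians of log2 -0.12 and -0.05, and 0 passed in any comparison. RRM2B, the p53-inducible subunit of ribonucleotide reductase, lay at 9.14 and 8.95 in luciferase cells, 7.87 and 8.54 after H3.Y siRNA, and 9.08 and 9.00 in the combined knockdown. It was lower on both H3.Y arrays than on the other 4, by log2 -0.84 ± 0.23 against luciferase (adjusted p = 0.189), and 0.83 ± 0.23 higher in the combined knockdown than after H3.Y siRNA (adjusted p = 0.109). The difference from luciferase was -1.18 without H3.Y replicate 2, where it passed (adjusted p = 0.0422), and -0.50 without H3.Y replicate 1. XPC, which recognises damaged DNA in nucleotide excision repair, lay at 7.08 and 7.01, 6.62 and 6.83, and 6.55 and 6.59 in the same order of groups. All 4 knockdown arrays were below both luciferase arrays, by -0.32 ± 0.14 (adjusted p = 0.385) and -0.47 ± 0.14 (adjusted p = 0.17). DDB2, its partner in damage recognition and the gene with a pair of half-sites in its window, gave 0.07 ± 0.17 and 0.04 ± 0.17. The translesion polymerase gene POLH gave 0.23 ± 0.13 and -0.09 ± 0.13.

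The 5 measured members of metabolism and stress signalling were all above luciferase after H3.Y siRNA, and 4 were above it in the combined knockdown, with medians of log2 0.31 and 0.44 and 0 passing. GDF15, a secreted stress cytokine that lowers appetite, lay at 7.12 and 7.07 in luciferase cells, 8.23 and 7.52 after H3.Y siRNA, and 7.82 and 7.72 in the combined knockdown. All 4 knockdown arrays were above the control, by 0.78 ± 0.23 (adjusted p = 0.216) and 0.67 ± 0.23 (adjusted p = 0.237), and H3.Y replicate 1 was the highest. The first difference was 1.13 without H3.Y replicate 2, where it passed (adjusted p = 0.0405), and 0.43 without H3.Y replicate 1. TIGAR, which lowers glycolytic flux, lay at 8.12 and 8.19, 8.27 and 8.45, and 8.68 and 8.52. The order of the groups was that of CDKN1A, with smaller steps of 0.20 ± 0.14 and 0.44 ± 0.14 over luciferase (adjusted p = 0.596 and 0.201).

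The sestrins restrain the growth kinase complex mTORC1. SESN1 was above luciferase on all knockdown arrays, by 0.31 ± 0.16 and 0.48 ± 0.16 (adjusted p = 0.464 and 0.228). SESN2 rested on a single array after H3.Y siRNA, at 7.94 on replicate 1 and 6.74 on replicate 2, against 6.97 and 6.51 in luciferase cells and 6.83 and 6.76 in the combined knockdown. Its difference of 0.60 carried the largest SE of all members, 0.38 (adjusted p = 0.56). SPATA18, a mitochondrial quality control gene, stayed between 3.75 and 4.16 on all arrays, below the array medians.

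**Figure D4:**
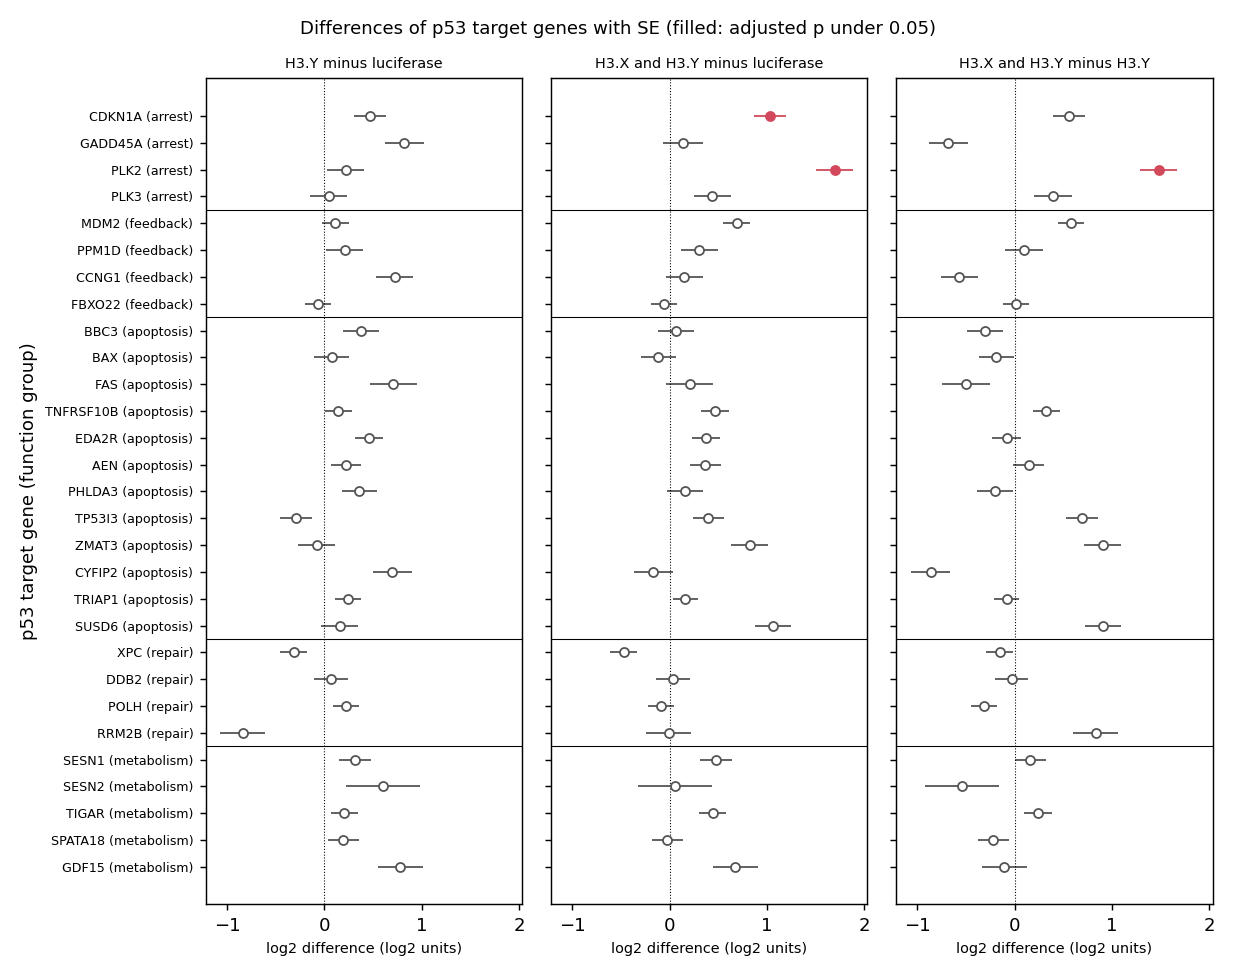
Fitted log2 difference with its SE for each of 29 p53 targets in the 3 comparisons, with filled points at an adjusted p under 0.05. The filled points are CDKN1A and PLK2 in the combined knockdown and PLK2 between the knockdowns, and no point is filled for H3.Y siRNA.

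The upstream side of the pathway was read on 23 probe sets for 21 of 23 listed p53 regulators. With H3.Y siRNA 0 passed, with ATR, the replication stress kinase that signals to p53, at -0.42 ± 0.13 (adjusted p = 0.22) and the acetyltransferase EP300 at 0.36 ± 0.14 (adjusted p = 0.331). In the combined knockdown ATR fell from 6.77 and 6.77 in luciferase cells to 6.06 and 5.96 (log2 -0.76 ± 0.13, adjusted p = 0.0451), the 1 call of the list, against 0.985% of all probe sets lower. Its H3.Y arrays, at 6.38 and 6.32, lay between the other groups. The call ended with the replicate block (adjusted p = 0.0511) and in the fit of only the 4 arrays compared (0.0536). Leaving out 1 H3.Y array gives the latter fit again. Without any one luciferase or combined array the call ended as well. MDM4, the partner of MDM2 that blocks p53 activity, lay at 6.94 and 7.24, 7.08 and 6.95, and 6.42 and 6.58. The combined knockdown held its lowest arrays, at -0.59 ± 0.16 against luciferase (adjusted p = 0.144) and -0.52 ± 0.16 against H3.Y siRNA (adjusted p = 0.137). With the deacetylase SIRT1 at -0.60 ± 0.15 (adjusted p = 0.079), 0 regulators passed between the knockdowns.

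Other p53 targets were read on 59 probe sets for a list of 63 further genes. With H3.Y siRNA 30 were higher and 29 lower, with a median of log2 0.02, as for all probe sets, and 0 passed. The phosphatase gene PTP4A1 at -0.68 ± 0.14 (adjusted p = 0.125) and the transcription factor PRDM1 at 0.74 ± 0.21 (adjusted p = 0.194) had the smallest p. In the combined knockdown 48 were higher and 11 lower (median 0.23, against 0.00087 for all probe sets). Here 3 rose and 0 fell, against 0.859% and 0.985% of all probe sets. They were TP53INP1, a regulator of autophagy and p53 phosphorylation, the lysosomal fucosidase FUCA1, and TRIM22, which interferon also induces.

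TP53INP1 lay at 6.14 and 6.40 in luciferase cells, 6.18 and 6.36 after H3.Y siRNA, and 7.78 and 7.58 in the combined knockdown. FUCA1 lay at 6.66 and 6.71, 7.04 and 6.78, and 8.09 and 7.99, and TRIM22 at 6.30 and 6.01, 6.17 and 6.19, and 7.20 and 7.53. In each of the 3 genes the combined arrays stood apart from the other 4. Their rises over luciferase were 1.41 ± 0.16, 1.35 ± 0.14 and 1.21 ± 0.17 (adjusted p = 0.0199, 0.0182 and 0.0307), and each call ended when 1 luciferase or combined array was left out. Between the knockdowns 41 were above and 18 below H3.Y siRNA in the combined knockdown (median 0.12, against -0.03 for all probe sets). Of these, 7 probe sets passed as higher and 1 as lower, against 2.74% and 1.92% of all probe sets. TP53INP1 (1.41 ± 0.16), the 14-3-3 protein SFN (1.26 ± 0.15), FUCA1 (1.13 ± 0.14), TRIM22 (1.18 ± 0.17), the growth factor TGFA (1.61 ± 0.26), KITLG (1.11 ± 0.18) and ANKRA2 (0.83 ± 0.16) were higher, and the angiogenic factor PGF was lower (-0.81 ± 0.14). The adjusted p of these 8 lay between 0.0116 and 0.0429. Without either one of the combined arrays all 8 calls ended, and in the fit of only the 4 arrays compared those of TRIM22, ANKRA2, KITLG, PGF and TGFA ended (adjusted p from 0.0508 to 0.0951). Leaving out 1 luciferase array gives that same fit and is no separate check. The same 5 calls also ended without H3.Y replicate 1, and those of TRIM22 and ANKRA2 without H3.Y replicate 2. ANKRA2 and PGF are named beyond the 6 of the naming rule so that all 8 are given. In SFN, TGFA and ANKRA2 both H3.Y arrays lay below both luciferase arrays. ANKRA2 was low throughout, at 3.36 to 4.44 over the arrays, below the array medians. SFN is also an epithelial gene, and both EPCAM probe sets rose in the combined knockdown as given above, while KRT5 did not pass. A link between SFN and these markers was not tested.

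Genes that p21 represses through the DREAM complex were mostly lower in both knockdowns. Of 20 probe sets for 17 genes, 19 were lower after H3.Y siRNA (median log2 -0.41), with 0 passing against 0.195% of all probe sets lower. In the combined knockdown 19 were lower (median -0.48), with 3 passing against 0.985% of all probe sets lower. Of all 33297 probe sets, 15503 and 16595 were lower in these comparisons, with medians of 0.02 and 0.00087. With H3.Y siRNA the smallest p belonged to 2 of the 3 CKS1B probe sets, at -1.18 ± 0.17 and -1.24 ± 0.19 (adjusted p = 0.0672 and 0.0717). The remaining CKS1B probe set gave a smaller difference, -0.61 ± 0.14 (adjusted p = 0.151). In the combined knockdown cyclin A2 (CCNA2), the anaphase activator CDC20 and the mitotic kinase PLK1 fell. CCNA2 lay at 9.73 and 9.73 in luciferase cells, 8.98 and 9.11 after H3.Y siRNA, and 8.16 and 8.32 in the combined knockdown. These groups did not overlap, with luciferase highest and the combined knockdown lowest. A link to CDKN1A was not tested. CCNA2 fell by 1.49 ± 0.14 on the log2 scale, CDC20 fell by 1.55 ± 0.16 and PLK1 fell by 1.01 ± 0.14 (adjusted p = 0.0153, 0.0179 and 0.0285). Between the knockdowns the list was divided, with 11 probe sets higher and 9 lower in the combined knockdown. The median was log2 0.10, against -0.03 for all probe sets. CDK1, the 1 probe set above luciferase in the combined knockdown (0.26 ± 0.19, adjusted p = 0.654), was 0.67 ± 0.19 above H3.Y siRNA (adjusted p = 0.119). CCNA2 (-0.81 ± 0.14, adjusted p = 0.0296) and CDC20 (-0.84 ± 0.16, adjusted p = 0.0432) passed as lower than after H3.Y siRNA, where 1.92% of all probe sets did. CKS1B was higher on 1 probe set (0.85 ± 0.17, adjusted p = 0.0492), while its other probe sets gave 0.90 and 0.11 and did not pass. Calls for CCNA2, CDC20 and PLK1 against luciferase also ended when 1 luciferase or combined array was left out. The CCNA2 and CDC20 calls between the knockdowns ended in the fit of only the 4 arrays compared.

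**Figure D5:**
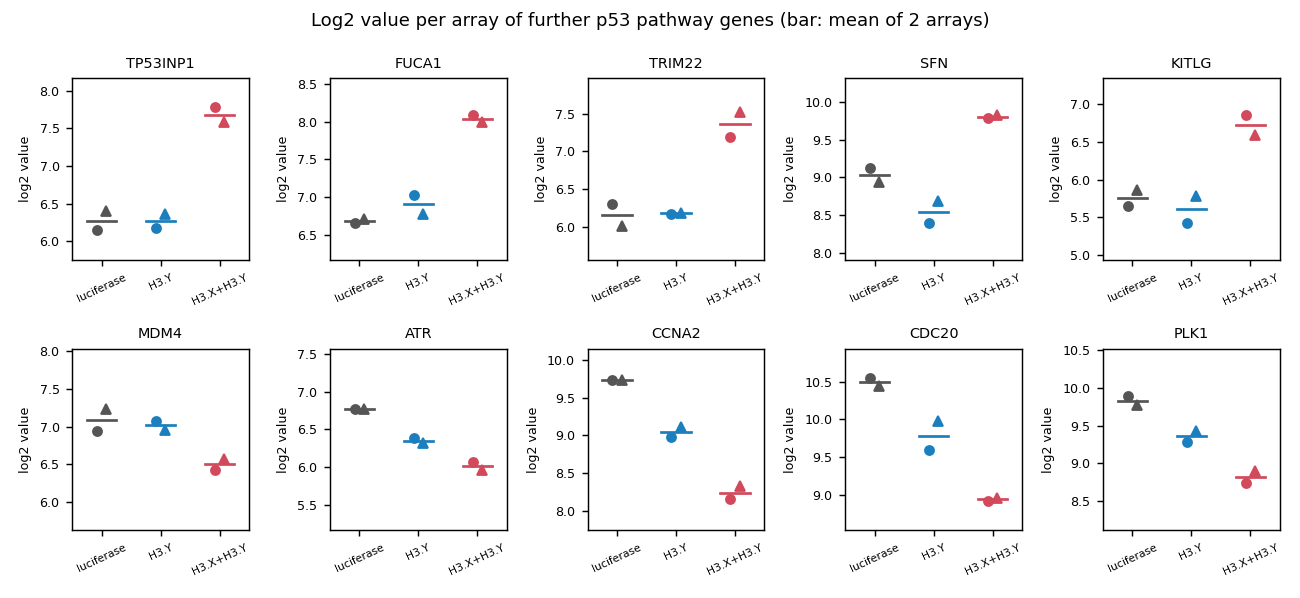
Log2 value on each of the 6 arrays for 10 further genes of the p53 pathway, with circles for replicate 1, triangles for replicate 2 and bars for the mean of the 2 arrays of a group. TP53INP1, FUCA1, TRIM22, SFN and KITLG have their highest arrays in the combined knockdown, and MDM4, ATR, CCNA2, CDC20 and PLK1 have their lowest arrays there.

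With 2 arrays against 2, an exact two-sided permutation test could not go below p = 0.333. A call of a single gene therefore rests on the model of limma. It combines the gene's own spread with a spread shared across probe sets. In these bulk samples, a change in some cells and a smaller change in all cells cannot be told apart.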

How the data were processed

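Biotin-labelled RNA was hybridised to Affymetrix arrays, per the labels' protocols. The authors deposited 1 log2 value per probe set and array. The submitters' processing notes name oligo, a Bioconductor package. For its version, background correction, summarisation and build, the sources used here state nothing. Here the log2 scale was inferred from values of 0.687 to 14.02. Values were used as deposited, and 0 value columns were left unused. A scaling that equalises arrays hides a change common to all transcripts.

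Probe sets were named from the platform annotation, with symbols updated by Entrez ID through the RefSeq gene table of GRCh38.p14. Of 33297 probe sets, 1754 had several symbols and 12083 were unnamed here. All were tested in R 4.3.3 with limma 3.58.1 (lmFit and eBayes, 1 mean per group, 6 arrays, 3 residual and 3.43 prior degrees of freedom, two-sided), with Benjamini-Hochberg adjustment across probe sets in each of 3 comparisons. The procedure was tested on simulated data. Values on every array were given for members called in any comparison and for the 2 members with the smallest p in each of 5 function groups, and up to 6 called genes, or otherwise 2, were named per further list. MDM4 was always named. The labels do not say that replicate numbers mark a shared culture or day, but deviations of same-numbered arrays correlated at 0.22, 0.28 and 0.12 in the 3 pairs of groups, so results whose call a replicate block changes are given with it. The members and lists were chosen with earlier results of these data known. Alternatives were quantile normalization, median centring, filters on level and on annotation, a trend in eBayes, a fit of the 4 arrays compared alone, a replicate block, and leaving out each array.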

Additional observations from a re-analysis of the deposited data

Results flagged for a closer look

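PLK2 differed between the knockdowns by the direct test, with log2 1.48 more in the combined knockdown than after H3.Y siRNA. TP53I3 lay below both luciferase arrays after H3.Y siRNA and above both in the combined knockdown. The difference of 0.69 between the knockdowns did not pass over all probe sets. Opposite sides of luciferase, in either direction, were seen for 1 of the 29 members, against 7.41% of all probe sets. The opposite movement as such was not tested.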

How the results depend on the processing

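Of 1194 values of single genes over the alternatives, 978 kept direction and side of the threshold, 140 lost a call, 70 gained one and 6 changed sign, all 6 uncalled in both fits. RRM2B in the combined knockdown gave 0.0724 with quantile normalization and -0.0989 to 0.0828 when 1 array was left out. The others changed sign only when 1 array was left out, ZMAT3 (-0.2815 to 0.1246) and SUSD6 (-0.0139 to 0.324) after H3.Y siRNA, and GDF15 between the knockdowns (-0.4587 to 0.2464).

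In the comparisons of H3.Y siRNA with luciferase, the combined knockdown with luciferase, and both knockdowns, 0, 2 and 1 members were called, and 93, 614 and 1554 of all probe sets. Testing only probe sets with 1 symbol gave 1, 5 and 9 members and 829, 1549 and 2715 probe sets. Both the number tested and the p-values changed there, with 3834, 4225 and 5293 of these probe sets at an unadjusted p under 0.05 against 3306, 3723 and 4740 of them in the fit of all. Testing only those above the median level gave 5 and 7 members in the latter comparisons and 540, 1442 and 2579 probe sets, with a member median of 0.2563 in the combined knockdown. The trend gave 4 and 5 members there, and 205 and 960 probe sets against luciferase. Only the 4 arrays compared gave 0 probe sets for H3.Y siRNA, 1 member in the combined knockdown and 448 probe sets between the knockdowns. Median centring added SUSD6 to the calls of the combined knockdown against luciferase, for 3 members, and against H3.Y siRNA, for 2, and quantile normalization a member median of 0.2578 after H3.Y siRNA. The cause of these shifts was not tested.

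Leaving out 1 array gave 0 to 3, 0 to 1 and 0 to 3 members, 0 to 629, 0 to 644 and 12 to 1641 probe sets, and member medians from 0.1928 to 0.2678, 0.1356 to 0.3467 and -0.0388 to 0.0053. An array left alone in its group was assumed to vary like the others.

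A replicate block gave 0, 2 and 3 members called, adding CYFIP2 and ZMAT3 between the knockdowns, and 68, 750 and 1778 probe sets. It also ended the call of ATR and changed no other call of a gene named with a value and recomputed here. The number of arrays limits the precision, and signal over background was not analysed here.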
